A study of Mus musculus with 15 samples.

Results

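Kidney tubule cells keep their identity and their metabolism through a small group of transcription factors and coactivators. The 8 described here are Hnf4a, Ppara, Esrra, Ppargc1a, Pax2, Pax8, Klf15 and Tfeb, chosen by name for that role and matched by Ensembl identifier and GRCm38 annotation among the 54532 genes of the deposited table. They and the gene lists below were chosen with earlier results of these data known. Counts of called genes set beside the share of all genes are therefore descriptions, not tests of a list. All 8 passed the filter on low values (above 0 in at least 5 of 10 libraries) and were tested in all 3 comparisons. HNF4A is the nuclear receptor that directs proximal tubule maturation, PPARA is the lipid-sensing receptor of fatty acid oxidation, and ESRRA is an orphan receptor that acts with the coactivator PGC-1alpha (Ppargc1a) on mitochondrial genes. PAX2 and PAX8 are paired-box factors that specify the nephric lineage and stay on in parts of the adult tubule. KLF15 is a zinc finger factor of amino acid and glucose metabolism, and TFEB is the bHLH factor that drives lysosome and autophagy genes.

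RNA of 1 kidney from each of 15 male C57BL/6 mice was sequenced after poly-A selection, 5 mice per group, starting at 8 weeks of age. The control group (C) ate adenine-free chow and received the vehicle. The CKD model group (M) ate chow with 0.25% adenine, a diet that causes tubular injury and fibrosis through crystals in the tubule, for 4 weeks and then standard chow up to 8 weeks, with the vehicle. The AA group had the same diets and 30 mg/kg of asiatic acid, a triterpenoid of Centella asiatica, daily by gavage throughout. Values are FPKM, fragments scaled by gene length and by library, as the authors deposited them. The 3 comparisons share groups and are not independent of each other: M vs. C and AA vs. M use the same 5 M libraries, and AA vs. C shares its groups with the other two.

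The fragments behind the values, recovered from the smallest steps of each library, summed to between 13647020 and 28884427 per library and to between 2077628 and 13576597 outside the mitochondrial genome. The mitochondrial share was 53.0 to 62.5% (C), 64.0 to 86.8% (M) and 69.2 to 87.2% (AA). The libraries of M mice 1 to 3 stood apart: they list 10065 to 12219 genes above 0, against 23031 to 25449 in M mice 4 and 5 and at least 18688 in every C and AA library. No label names a batch that separates them, so the main results on the M group are also given with M mice 4 and 5 only. Defining genes of the tissue were present in the C group, with mean FPKM of 312 for Slc34a1 (proximal tubule phosphate transporter), 39.3 for Slc12a1 (loop), 44.7 for Slc12a3 (distal tubule) and 153 for Aqp2 (collecting duct). In the M group Slc34a1 averaged 6.06, Aqp2 3.38 and Slc12a3 1.52, and Slc12a3 was listed at 0 in M mice 1 to 3. In whole kidney, fewer cells of a type and less RNA per cell cannot be told apart.

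Upstream sequences are shown for the gene that rose in AA vs. M (Hnf4a) and for the 4 that fell together in AA vs. C (Esrra, Pax8, Klf15 and Tfeb). Each is RefSeq sequence of GRCm38.p6 on the gene's own strand, 5′ to 3′, from up to 250 bases before an annotated start to the last base before the first annotated exon. Capitals mark every match, on either strand, to 5 motifs: AGGTCA (the nuclear receptor half-site), TCAAGGTCA (the extended ERR half-site, which holds AGGTCA), CAAAGTCCA (an HNF4 element), CACGTG (the E-box core bound by TFEB-type factors) and GGGCGG (the GC box).
Hnf4a, chr2:163506607-163506807: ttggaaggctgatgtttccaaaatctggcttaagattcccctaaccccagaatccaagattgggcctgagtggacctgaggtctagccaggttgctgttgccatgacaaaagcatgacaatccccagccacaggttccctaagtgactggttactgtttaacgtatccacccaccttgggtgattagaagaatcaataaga
Esrra, chr19:6921814-6922058: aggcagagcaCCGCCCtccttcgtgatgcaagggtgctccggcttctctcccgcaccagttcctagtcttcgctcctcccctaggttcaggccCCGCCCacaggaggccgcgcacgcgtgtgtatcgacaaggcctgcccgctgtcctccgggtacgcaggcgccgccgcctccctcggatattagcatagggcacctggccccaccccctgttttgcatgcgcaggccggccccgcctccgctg
Pax8, chr2:24475600-24475849: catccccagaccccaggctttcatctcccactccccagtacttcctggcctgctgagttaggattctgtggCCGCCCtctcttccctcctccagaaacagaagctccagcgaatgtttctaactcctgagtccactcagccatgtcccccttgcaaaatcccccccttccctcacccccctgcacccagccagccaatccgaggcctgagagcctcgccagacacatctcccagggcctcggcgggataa
Klf15, chr6:90462326-90462575: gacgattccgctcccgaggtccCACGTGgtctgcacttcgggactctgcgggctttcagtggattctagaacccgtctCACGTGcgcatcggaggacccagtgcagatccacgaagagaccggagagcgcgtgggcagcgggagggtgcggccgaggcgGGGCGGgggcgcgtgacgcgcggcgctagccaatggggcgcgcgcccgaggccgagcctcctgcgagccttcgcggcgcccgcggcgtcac
Tfeb, chr17:47736787-47737029: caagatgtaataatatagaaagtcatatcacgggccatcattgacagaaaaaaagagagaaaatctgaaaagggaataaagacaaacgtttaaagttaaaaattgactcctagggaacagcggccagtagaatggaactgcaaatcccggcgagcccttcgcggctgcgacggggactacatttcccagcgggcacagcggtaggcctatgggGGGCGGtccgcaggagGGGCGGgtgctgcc
The Hnf4a window of 201 bases ends directly before the gene's first annotated base, and it held none of the 5 motifs and 1 CpG. No window before any other start of Hnf4a is shown, so these counts hold for this window only. Which start of Hnf4a, or of the other genes, these kidneys used was not tested. Esrra held 2 GC boxes and 22 CpG in 245 bases, Pax8 held 1 GC box and 6 CpG in 250 bases, and Tfeb held 2 GC boxes and 14 CpG in 243 bases. Klf15 held 2 E-box cores, 1 GC box and 37 CpG in 250 bases. Over the 32851 mouse promoters of 250 bases in the same table, 32.7% held the GC box, 14.0% AGGTCA, 6.02% CACGTG, 0.387% TCAAGGTCA and 0.384% CAAAGTCCA, and the median number of CpG was 6. These matches describe letters in these windows and say nothing of binding. Tfeb has a further annotated start, and the 226 bases before it, which end at 47785719, held 1 GC box.

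Hnf4a was the only member called in AA vs. M. A gene was called when limma's Benjamini-Hochberg adjusted p was at most 0.05 and the log2 fold change of FPKM + 1 was at least 1 in either direction. Hnf4a (ENSMUSG00000017950, chromosome 2, 163506808 to 163572910, plus strand) gave FPKM of 9.18, 31.0, 8.51, 24.6 and 25.0 for C kidneys 1 to 5. M kidneys 1 to 5 gave 3.80, 0.912, 1.05, 9.37 and 7.60, and AA kidneys 11.9, 11.7, 18.5, 12.2 and 18.8. All 5 AA values lay above all 5 M values and within the range of the C values, and only M mouse 4 reached into the C range. The AA group differed from the M group by a log2 fold change of 1.79 (standard error 0.47, adjusted p = 0.0195, two-sided exact permutation p = 0.00794, n = 5 per group). With 5 against 5 libraries 0.00794 is the smallest exact p, and the exact p-values of the 24 tests on members are not adjusted. Of all 19798 genes tested in AA vs. M, 11.7% were called higher and 1.07% lower (12.8% in either direction). Of the genes called, 91.6% were higher, against 43.1% with each library centred on its median and 27.8% with M mice 4 and 5 only. For 11.9% of all genes tested every AA value lay above all M values (1.31% below). The 1 of 8 members called is thus close to the share of all genes. At an unadjusted p under 0.05 there were 32.1% of all genes.

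The rise of Hnf4a rested in part on M mice 1 to 3. They had 46 to 213 fragments on Hnf4a against 1146 and 1327 in M mice 4 and 5. Against M mice 4 and 5 only, the log2 fold change was 0.69 (adjusted p = 0.201) and Hnf4a was not called. The call was kept in 9 of 10 fits that left out 1 library, with 1.49 to 2.10, and was lost without M mouse 3 (adjusted p = 0.0557). With the libraries scaled to TPM it was 1.58 (adjusted p = 0.159).

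Between M and C, Hnf4a differed by −2.05 on the log2 scale (standard error 0.54), which did not pass the adjusted test (adjusted p = 0.0845, exact permutation p = 0.0238). None of the 8 members was called by limma in this comparison (nor by voom), although 5 had an unadjusted p under 0.05. Of all genes, 1.11% of 21153 were called lower and 0.269% higher (1.38% in all), 3.67% had all M values below all C values, 1.05% had them above and 16.5% had an unadjusted p under 0.05. With all 15 libraries in one fit Hnf4a was called at the same fold change (adjusted p = 0.0223). With M mice 4 and 5 only the difference was −0.96, and no gene of the 20868 tested was called by limma there, while 2489 had an unadjusted p under 0.05. The AA vs. C difference of Hnf4a was −0.26 (standard error 0.36, adjusted p = 0.588), and with TPM scaling it was −1.30 and called (adjusted p = 0.0175).

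**Figure D1:**
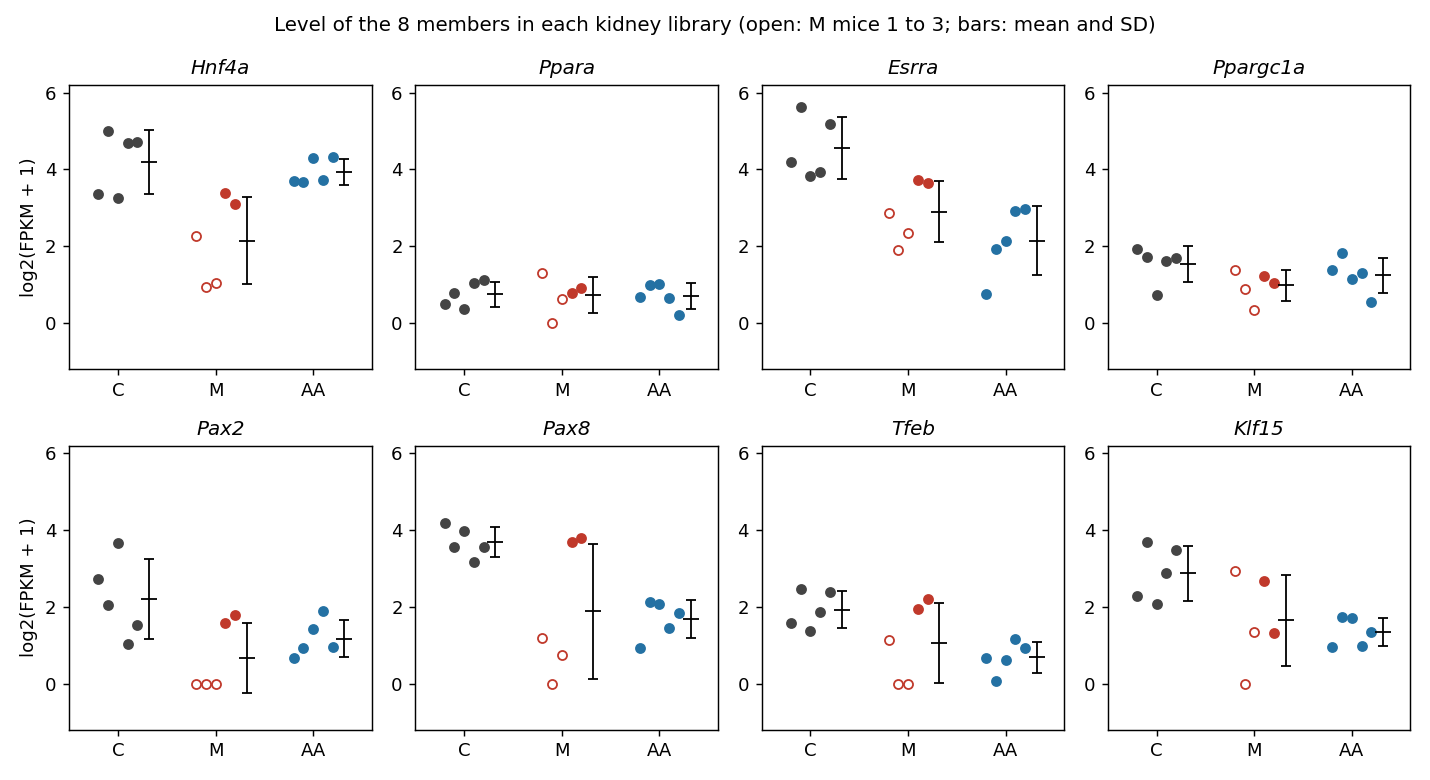
Level of each member in each library, as log2(FPKM + 1), in the C, M and AA groups. Points are single mice (open red for M mice 1 to 3), and bars give the mean and SD of 5 libraries. Hnf4a in the AA group lies above every M library, and Esrra, Pax8, Klf15 and Tfeb in the AA group lie below every C library.

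Esrra was lower in the kidneys of both groups fed adenine, and the fall was called in AA vs. C. Esrra (ENSMUSG00000024955, chromosome 19, 6910977 to 6921813, minus strand) gave FPKM of 17.3, 48.3, 13.2, 14.1 and 35.3 for the C kidneys. M kidneys had 6.25, 2.75, 4.09, 12.2 and 11.5, and AA kidneys 0.694, 2.79, 3.36, 6.53 and 6.82. Every C value lay above every M and every AA value, and the M and AA values overlapped. Esrra fell by 2.41 on the log2 scale in AA vs. C (standard error 0.46, adjusted p = 0.00273, exact permutation p = 0.00794). The M group stood at −1.65 against the C group (standard error 0.46, adjusted p = 0.0993, exact permutation p = 0.00794), so Esrra was the 1 member with groups that did not overlap in M vs. C, yet it was not called. With M mice 4 and 5 only all of its M values were 11.5 or higher, still below the lowest C value, and the M vs. C difference was −0.87 (adjusted p = 0.579). AA vs. M gave no call, with −1.54 (adjusted p = 0.104) against M mice 4 and 5 only. Its exons share 164 bases (3.74%) with Trmt112 on the opposite strand and with Mir6990, and 3.63% of its 30-base words occur in transcripts of other genes. Whether the authors counted by strand is not given in the sources used here, so reads of Trmt112 there cannot be told apart from Esrra.

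Ppara and Ppargc1a, the lipid receptor and the PGC-1alpha coactivator, passed the test in no comparison. Ppara (ENSMUSG00000022383, chromosome 15, 85734983 to 85802819, plus strand) stood at 0.406, 0.707, 0.283, 1.04 and 1.15 FPKM in C kidneys. The values of the M kidneys were 1.48, 0, 0.537, 0.720 and 0.885, and those of the AA kidneys 0.593, 0.983, 1.01, 0.557 and 0.146. The 3 groups overlapped almost fully, and 9 to 148 fragments lay behind each value above 0. The log2 fold change was −0.025 for M vs. C (standard error 0.28), −0.026 for AA vs. M (0.28) and −0.051 for AA vs. C (0.21), with adjusted p of 0.967, 0.964 and 0.866.

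Ppargc1a (ENSMUSG00000029167, chromosome 5, 51454250 to 51567726, minus strand) stood at 2.77, 2.29, 0.649, 2.04 and 2.24 FPKM in C kidneys. M kidneys had 1.62, 0.842, 0.268, 1.33 and 1.07, and AA kidneys 1.60, 2.54, 1.19, 1.44 and 0.462. C mouse 3 was low among the C mice, and the groups overlapped. The difference was −0.55 for M vs. C (standard error 0.31, adjusted p = 0.395; −0.39 with M mice 4 and 5 only), 0.26 for AA vs. M (0.32, adjusted p = 0.619; 0.099 with those 2) and −0.30 in AA vs. C (0.29, adjusted p = 0.433).

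Pax8, which in adults stays on along the nephron, fell in AA vs. C and was split within the M group. Pax8 (ENSMUSG00000026976, chromosome 2, 24420560 to 24475599, minus strand) gave FPKM of 17.0, 10.7, 14.9, 7.94 and 10.9 for the C kidneys, and 0.909, 3.37, 3.18, 1.72 and 2.57 for the AA kidneys. Its M values were 1.27, 0, 0.668, 11.8 and 13.0. M mice 4 and 5 were thus within the C range, and M mice 1 to 3 were below every C value, 1 of them listed at 0. Pax8 fell by 2.01 on the log2 scale in AA vs. C (standard error 0.28, adjusted p = 0.000543, exact permutation p = 0.00794). For M vs. C the difference was −1.81 with a standard error of 0.67 (adjusted p = 0.209), and with M mice 4 and 5 only it was 0.055. For AA vs. M it was −0.20 (standard error 0.66, adjusted p = 0.869) with all M mice and −2.06 (adjusted p = 0.0108), a called fall, with M mice 4 and 5 only. Its exons share 367 bases (6.06%) with Gm13415 on the opposite strand, and 5.20% of its 30-base words occur elsewhere.

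Pax2, the paired-box partner of Pax8 that in adults is mostly a collecting duct and injury gene, passed the test in no comparison. Pax2 (ENSMUSG00000004231, chromosome 19, 44756045 to 44837871, plus strand) gave FPKM of 5.62, 3.15, 11.8, 1.06 and 1.89 for the C kidneys, and 0.584, 0.902, 1.68, 2.69 and 0.953 for the AA kidneys. It was listed at 0 in M mice 1 to 3, where a count of 0 allows up to 0.0408 to 0.0531 FPKM (3 fragments, counting error only), and was 1.98 and 2.42 in M mice 4 and 5. The C mice themselves differed widely, and those with the highest Pax2, mice 1 and 3, also had the highest Aqp2, the collecting duct water channel, at 255 and 437 FPKM against 20.6 to 29.6 in the other 3. The part of collecting duct tissue in the Pax2 values was not tested. The log2 fold changes were −1.54 for M vs. C (standard error 0.54, adjusted p = 0.183), 0.50 for AA vs. M (0.42, adjusted p = 0.439) and −1.04 for AA vs. C (0.44, adjusted p = 0.0836). Limma voom on the recovered fragments, an alternative added after the data were seen, called Pax2 higher in AA vs. M at 4.31 (adjusted p = 0.0358), while with M mice 4 and 5 only the difference was −0.50.

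Klf15 and Tfeb both fell in AA vs. C. Klf15 (ENSMUSG00000030087, chromosome 6, 90462576 to 90475238, plus strand) gave FPKM of 3.85, 11.9, 3.20, 6.31 and 10.1 for the C kidneys, and 0.947, 2.30, 2.27, 0.975 and 1.56 for the AA kidneys. Its M values were 6.64, 0, 1.53, 5.39 and 1.49. The C and AA values did not overlap, and the M values ran from 0 into the C range. Klf15 fell by 1.53 on the log2 scale in AA vs. C (standard error 0.33, adjusted p = 0.00475, exact permutation p = 0.00794). M vs. C gave −1.22 (standard error 0.54, adjusted p = 0.276), and AA vs. M gave −0.31 (0.49, adjusted p = 0.707). With M mice 4 and 5 only these were −0.88 and −0.65, neither called.

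Tfeb (ENSMUSG00000023990, chromosome 17, 47737030 to 47792419, plus strand) gave FPKM of 1.98, 4.48, 1.56, 2.67 and 4.21 for the C kidneys, and 0.583, 0.0391, 0.541, 1.23 and 0.898 for the AA kidneys. Its M values were 1.22, 0, 0, 2.83 and 3.58. Again M mice 4 and 5 lay in the C range, and M mice 1 to 3 lay below it. Tfeb fell by 1.24 in AA vs. C (standard error 0.28, adjusted p = 0.00571, exact permutation p = 0.00794), a value with 2 to 143 fragments behind it in each AA library. M vs. C gave −0.87 (0.46, adjusted p = 0.363), and 0.14 with M mice 4 and 5 only. AA vs. M gave −0.37 (0.44, adjusted p = 0.601), and −1.38 (adjusted p = 0.0321), a called fall, with M mice 4 and 5 only.

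Across AA vs. C, 4 of 8 members were called lower and none higher. Over all 21898 genes tested there, 9.61% were called lower and 10.2% higher (19.8% in all), 46.8% had an unadjusted p under 0.05, and all AA values lay below all C values for 12.5% and above them for 11.5%, against 4 and 0 of the 8 members. The median log2 fold change of the members was −1.14 for AA vs. C, −1.38 for M vs. C and −0.11 for AA vs. M, beside 0.091, −0.12 and 0.17 over all genes tested. With M mice 4 and 5 only the median of the members was −0.46 for M vs. C and −0.58 for AA vs. M, and with the GC trend subtracted it was −0.72 for AA vs. C. TPM scaling moved the AA vs. C median of all genes to −0.33, that of the members to −1.85 and the share of called genes that were higher from 51.6 to 11.4%, and 7 of 8 members were then called lower, Ppara being the other one. Centring each library on its median gave 40.1%, with the same number of members, 4, called. The 4 calls of AA vs. C were kept in 10 of 10 fits with 1 library left out. Genes rich in G and C were lower in AA vs. C as a whole: over 10 equal bins of genes by GC content, the median log2 fold change ran from 0.37 in the lowest to −0.34 in the highest bin. Esrra (58.4% GC), Pax2 (60.2%) and Tfeb (61.3%) lie in that highest bin, while Hnf4a (54.3%), Pax8 (54.6%) and Klf15 (55.0%) lie in the 2 bins below it. With the GC trend of each library subtracted, an alternative added after the data were seen, the falls were 2.07 for Esrra, 1.80 for Pax8 and 1.31 for Klf15, all called, and 0.82 for Tfeb (adjusted p = 0.0178), under the fold threshold.

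**Figure D2:**
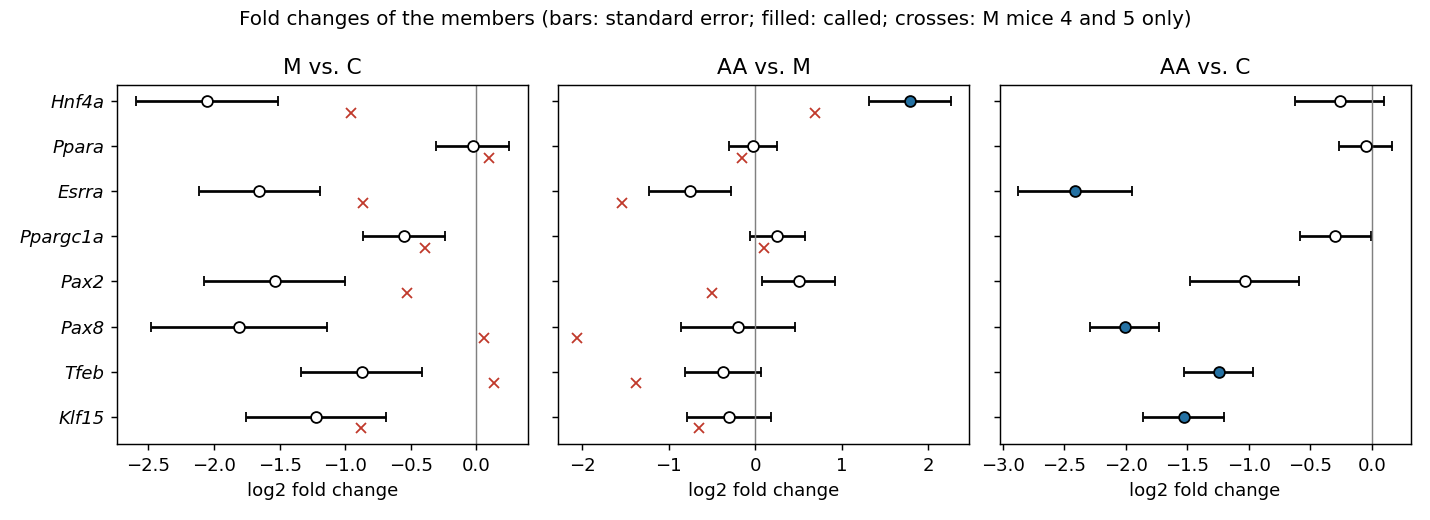
Log2 fold change of each member in the 3 comparisons, with its standard error from limma (n = 5 per group). Filled points were called, and red crosses give the value with M mice 4 and 5 only, where Hnf4a in AA vs. M is 0.69 in place of 1.79 and Pax8 is −2.06 in place of −0.20.

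**Figure D3:**
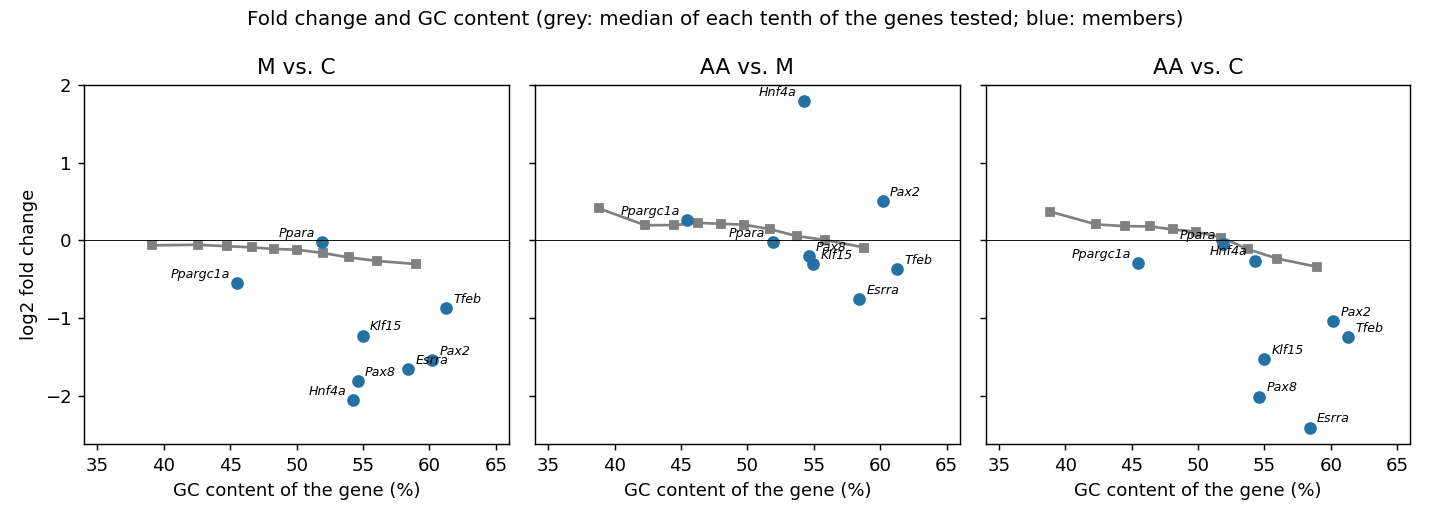
Log2 fold change of the members (blue) against the GC content of their exons in percent, with the median of each of 10 bins of all genes tested (grey). The grey line falls with GC content in all 3 panels, most in AA vs. C, and the 4 members called there lie below it.

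The order of the members by mean log2(FPKM + 1), which is per length and so allows levels of different genes to be set side by side, changed at its top between groups. Esrra and Hnf4a led in the C group at 4.55 ± 0.81 and 4.20 ± 0.83 (SD, n = 5), and the same pair led in the M group at 2.90 ± 0.79 and 2.14 ± 1.13. In the AA group Hnf4a led at 3.93 ± 0.33, and Esrra followed at 2.14 ± 0.90. Hnf4a was above Esrra in 5 of 5 AA libraries, Esrra was above Hnf4a in 5 of 5 M libraries, and in the C group it was so in 4 of 5. The FPKM ratio of Hnf4a to Esrra, a quantity chosen after the values were seen and not tested, was 0.531 to 1.74 (C), 0.257 to 0.771 (M) and 1.86 to 17.1 (AA). Next came Pax8 and Klf15 in every group. The lower ranks were held by Pax2, Tfeb, Ppargc1a and Ppara in an order that differed between groups, and most neighbours there differed by less than the SD of their difference. The exceptions among the lower ranks were Ppargc1a above Ppara in the C group (0.78 ± 0.42 on the log2 scale) and, one rank up, Pax8 above Klf15 in the AA group (0.33 ± 0.21).

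The list of genes that HNF4A is known to drive in the proximal tubule held 26 for transport, endocytosis and gluconeogenesis, 7 of them also among the proximal tubule markers. For AA vs. M, 2 of 25 tested were called higher and 0 lower, beside 11.7% of all genes called higher (median 0.41, all genes 0.17), and the median was −0.11 with each library centred on its median, where that of all genes was −0.35. The 2 were Apom, an apolipoprotein of high-density lipoprotein (log2 fold change 1.56, standard error 0.35, adjusted p = 0.00978), and Slc3a1, the cystine transporter subunit (1.47, 0.34, adjusted p = 0.0112). Neither was called against M mice 4 and 5 only, with 0.86 and 1.15, and there 2 other genes of the list were called lower, one of them Slc34a1 (−1.69, adjusted p = 0.0138). For AA vs. C, 12 of 26 were called lower and 1 higher (9.61% and 10.2% of all genes, median −1.13). For M vs. C 10 were called lower and 0 higher (1.11% and 0.269% of all genes, median −1.86). Slc34a1 fell in both, with −5.48 in AA vs. C and −5.65 in M vs. C. So did Slc22a6, the organic anion transporter OAT1, with −3.57 and −3.67. The 1 gene higher in AA vs. C was Apoe (1.83), which macrophages also make.

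The level of Hnf4a was also set against that of the proximal tubule markers. The 15 proximal tubule markers summed to 3415 to 13885 FPKM (C), 168 to 732 (M) and 286 to 722 (AA). A large part of these sums was 1 gene, Kap, which averaged 5622 FPKM in C, 267 in M and 360 in AA. Of these, 10 were called lower in M vs. C, 12 were in AA vs. C, and none was called by limma or voom in either direction in AA vs. M, where 3 had an unadjusted p under 0.05. Against M mice 4 and 5 only, 1 was called higher and 2 lower in AA vs. M. Hnf4a minus the mean log2 level of these markers was −1.23 ± 0.35 in C, −0.45 ± 0.62 in M and 0.96 ± 0.25 in AA (SD, n = 5 each). The AA libraries ran from 0.70 to 1.24, above every M library (highest 0.26) and every C library (highest −0.76). By its mean, every other member also stood higher against these markers in AA than in C. Ppara had −4.67 ± 0.72 in C and −2.28 ± 0.48 in AA, and Ppargc1a had −3.89 ± 0.84 and −1.74 ± 0.63. Members called lower in AA vs. C were among them, as Klf15 with −2.55 ± 0.29 and −1.63 ± 0.34. Esrra hardly moved, with −0.87 ± 0.45 and −0.84 ± 0.94. The M group had −1.87 ± 0.39 for Ppara and −1.62 ± 0.55 for Ppargc1a. These differences were chosen after the values were seen and are given with no test.

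**Figure D4:**
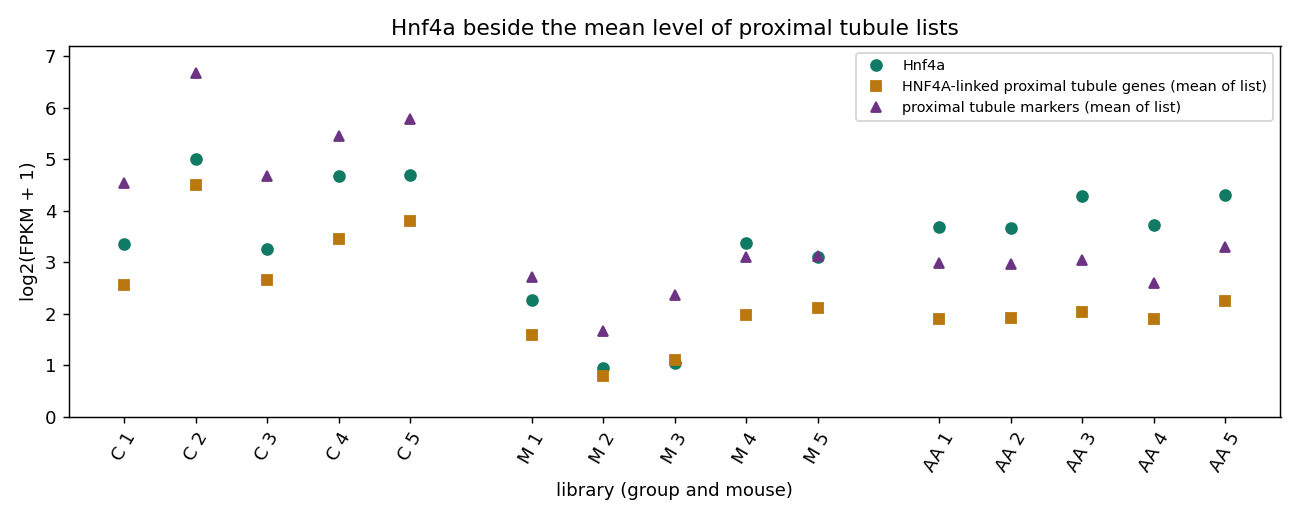
Level of Hnf4a beside the mean level of the HNF4A-linked proximal tubule genes and of the proximal tubule markers, as log2(FPKM + 1), in each library. In the C libraries Hnf4a lies below the marker mean, and in the 5 AA libraries it lies 0.70 to 1.24 above it.

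Of 24 tested fatty acid oxidation genes linked to PPARA, 10 fell in AA vs. C, where Ppara itself was at −0.051 and not called. None was called higher and 14 did not pass, beside 9.61% of all genes called lower (median −0.95). The 10 included Acaa1a and Acaa1b, the peroxisomal thiolases (−1.78 and −2.61), Eci1, an enoyl-CoA isomerase (−1.39), and Cyp4b1 (−2.32). For M vs. C 2 were called lower, Cyp4b1 (−3.26) and Acaa1b (−2.57), beside 1.11% of all genes. For AA vs. M 1 was called higher, the acyl-CoA thioesterase Acot1 (1.26, adjusted p = 0.0167), beside 11.7% of all genes. Acot1 was not called against M mice 4 and 5 only (1.16, adjusted p = 0.0624). Acaa1a and Acaa1b are near-identical copies, and how shared reads were divided between them is not given in the sources used here.

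Nuclear genes of mitochondrial respiration linked to ESRRA and PGC-1alpha fell in part in AA vs. C. There, 6 of 24 were called lower and 0 higher, beside 9.61% and 10.2% of all genes (median −0.54). Sirt3, the mitochondrial deacetylase (−1.58), Sdhb of complex II (−1.58), Ndufv1 of complex I (−1.43) and Cox5b of complex IV (−1.66) had the smallest p. For M vs. C none of 24 passed by limma (11 had an unadjusted p under 0.05, and 2 were called with voom), and Ogdh (−1.77, adjusted p = 0.0551) and Sdhb (−1.28, adjusted p = 0.0657) came closest. None passed by limma or voom in AA vs. M (1 with an unadjusted p under 0.05), where the median was 0.018 and turned to −0.066 with TPM scaling. Whether AA vs. C and M vs. C differ for this list was not tested. With TPM scaling 23 of 24 were called lower in AA vs. C and 20 of 24 in M vs. C.

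Amino acid catabolism genes linked to KLF15 were called lower for 10 of 16 tested in AA vs. C and for 4 of 16 in M vs. C, beside 9.61% and 1.11% of all genes, and none was called higher. The AA vs. C median was −1.39. Hpd and Hgd, successive enzymes of tyrosine breakdown, were at −3.31 and −2.81, Prodh, the first enzyme of proline breakdown, at −2.87, and Bckdhb, a subunit of the branched-chain ketoacid dehydrogenase, at −2.56. The 4 in M vs. C were Hpd (−3.52), Hgd (−3.04), Prodh (−2.58) and Ivd (−1.82). With M mice 4 and 5 only no gene at all was called in M vs. C, so the loss of these calls is not particular to them. The median of the list there was −1.13, against −1.32 with all M mice. AA vs. M gave 1 higher, Hibch of valine breakdown (1.08, adjusted p = 0.0404), beside 11.7% of all genes. Against M mice 4 and 5 only Hibch was 0.83 and not called, while 4 genes of the list, Prodh and Bckdhb among them, were called lower.

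Calls among lysosome and autophagy genes linked to TFEB went both ways in AA vs. C, in a share near the 19.8% of all genes. Of 28 there, 2 were called higher and 3 lower, beside 10.2% and 9.61% of all genes (median 0.27, and −0.65 with TPM scaling). Those higher were Gpnmb (1.35), a glycoprotein that macrophages also make, and the lysosomal membrane protein Lamp2 (1.26). Those lower were Neu1, the lysosomal sialidase (−2.08), Flcn, the folliculin gene (−1.65), and Mcoln1, the lysosomal calcium channel (−1.23). M vs. C gave 1, Gpnmb, higher by 1.68, beside 0.269% of all genes, and the median was −0.17. None was called by limma in AA vs. M, where 2 had an unadjusted p under 0.05 (median 0.13, and −0.028 with scaling to the total outside the mitochondrial genome). Against M mice 4 and 5 only, Flcn (−1.56) and Mcoln1 (−1.75) were called lower there, and with centring 3 genes were. Rragd was closest, at 1.00 with an adjusted p of 0.0378, just under the fold threshold.

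Of the nephric lineage genes linked to PAX2 and PAX8, 14 of 17 were tested in AA vs. C. Of these, 3 were called lower and 1 higher, beside 9.61% and 10.2% of all genes (median −0.63). Those lower included Cdh16, the kidney-specific cadherin of the tubule (−2.97), and Aqp2 (−3.92). Wt1, which in adults marks podocytes, was higher by 1.30 in AA vs. C. It was also the 1 call in AA vs. M, beside 12.8% of all genes called. Against M mice 4 and 5 only that call was lost (0.43), and 2 genes were called lower, Cdh16 (−2.10) being one. For M vs. C 1 of 14 was called, Aqp2 (−4.15).

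Among 33 other transcription factors and coactivators of the tubule, calls with all M mice went both ways only in AA vs. C. Of 32 tested in AA vs. M, 4 were called higher and 0 lower, close to the 11.7% of all genes called higher (median 0.37, and −0.15 with centring, where that of all genes was −0.35): Hnf4g, the paralog of Hnf4a (1.27, standard error 0.32, adjusted p = 0.0147), Klf9 (1.30), the PGC-1beta gene Ppargc1b (1.29) and the epithelial factor Grhl2 (1.09). None of these 4 was called against M mice 4 and 5 only, where Hnf4g was 1.13 and Klf9 1.24 and 3 others of the list were called lower, among them Nr1h4 (−1.10) and Irx2 (−1.10). For AA vs. C 5 of 33 were called lower and 3 higher, beside 9.61% and 10.2% of all genes (median −0.23). That is near the share of all genes. Among those with the smallest p were Nr1h4, the bile acid receptor FXR (−2.65), and Irx2 (−1.01). M vs. C gave 1, Emx1 (−2.29, adjusted p = 0.0225), beside 1.11% of all genes called lower.

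**Figure D5:**
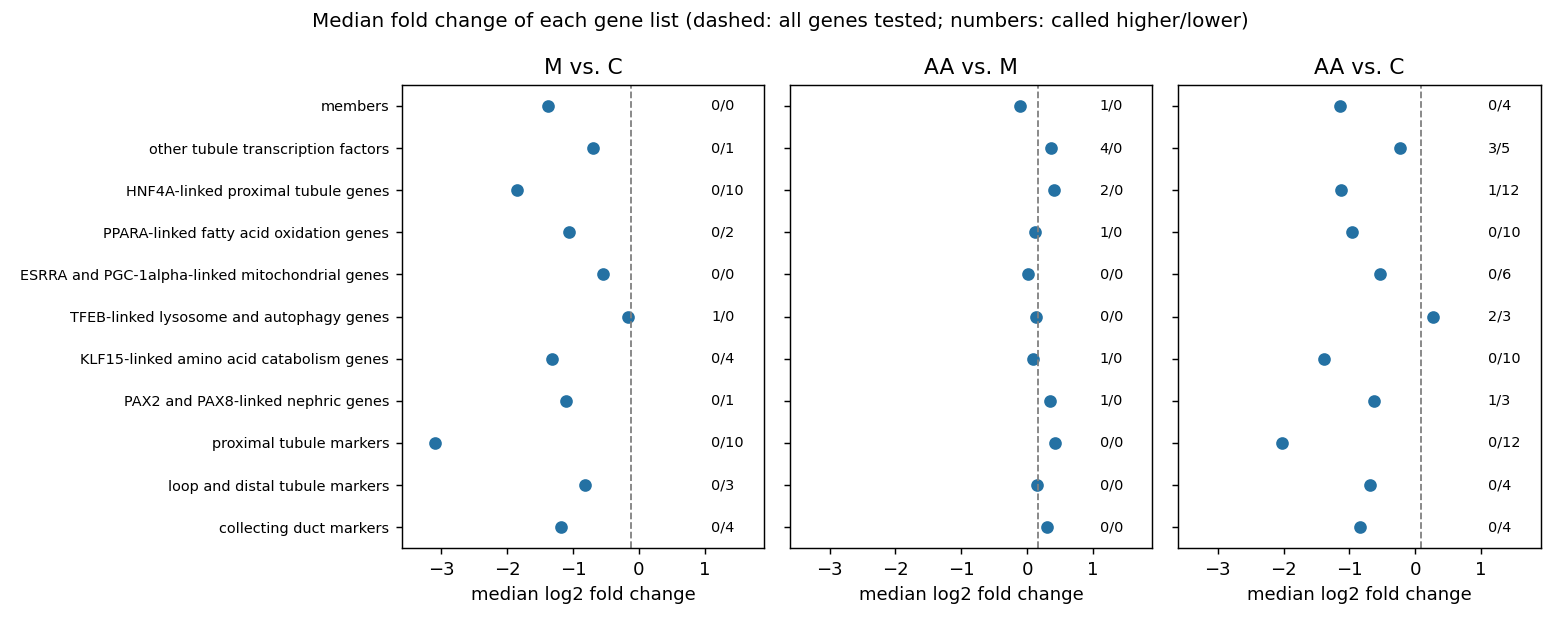
Median log2 fold change of each gene list in the 3 comparisons, with the median over all genes tested as a dashed line and the numbers of genes called higher and lower at the right of each panel. For AA vs. M all medians shown lie between −0.11 (members) and 0.43 (proximal tubule markers), and for AA vs. C the TFEB-linked list alone of those shown lies above the dashed line.

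Markers of other cell types were counted in the same way. Of all genes, 1.38% were called in M vs. C, 12.8% in AA vs. M (11.7% higher) and 19.8% in AA vs. C. Counts near these shares, as for the endothelial list and the genes used in every cell, are not results about those markers. Macrophage markers summed to 22.9 to 137 FPKM (C), 189 to 522 (M) and 131 to 203 (AA), with 5 of 12 called higher in M vs. C, 2 lower in AA vs. M, and 6 higher and 1 lower in AA vs. C. Lyz2 led at 4.32 in M vs. C. Fibroblast and myofibroblast markers summed to 74.0 to 173, 145 to 501 and 313 to 555 FPKM in the C, M and AA libraries, and 1 of 10 was called higher in M vs. C, 1 in AA vs. M and 7 in AA vs. C, with Col1a1 at 2.49 there. Markers of injured tubule passed for 0 of 10 in M vs. C (5 at an unadjusted p under 0.05) and, in AA vs. C, for 3 higher and 1 lower. In AA vs. M 2 were called higher (Havcr1 at 1.87 and Sox9 at 1.29), while 7 of the 10 had a negative fold change. The median of that list there was −0.032, beside 0.17 over all genes. Loop and distal tubule markers gave 3 of 10 lower in M vs. C, with 4 lower in AA vs. C, and collecting duct markers gave 4 of 9 in both. With all M mice neither had a limma call in AA vs. M, where 1 gene of each list had an unadjusted p under 0.05. Podocyte markers gave 0 of 8 in M vs. C (also 0 at an unadjusted p under 0.05), 1 higher in AA vs. M, and 2 higher and 1 lower in AA vs. C. Endothelial markers gave 1 of 8, Egfl7, lower in AA vs. C and no other call with all M mice. Of 12 lymphocyte markers, 0 of 11 tested were called in M vs. C (1 at an unadjusted p under 0.05), 2 of 8 higher in AA vs. M, and 2 higher and 1 lower in AA vs. C, most at or near 0. Of 20 genes used in every cell, 0 were called in M vs. C (6 at an unadjusted p under 0.05), 1 higher in AA vs. M, and 2 higher and 3 lower in AA vs. C. Gapdh, a glycolytic enzyme used in every cell, averaged 0.0301 FPKM in the AA group against 5.96 in the C group. How reads that match several places were counted is not given in the sources used here, so these Gapdh values are given only as deposited. With M mice 4 and 5 only, none of these lists had a call in M vs. C, where no gene at all was called. For AA vs. M the macrophage, fibroblast, injured tubule, collecting duct, podocyte and lymphocyte lists then had none, the loop and distal tubule list had 1 higher and 1 lower, the endothelial list had Egfl7 lower (−1.83), and the genes used in every cell had 1 higher and 3 lower. The part of cell makeup, of mitochondrial share and of these genes in the members' values was not tested.

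As a description, the 3 protein-coding genes most like each member were found by Pearson's r of log2(FPKM + 1) over the 15 libraries, among 14167 genes above 0 in at least 10 of them. For Hnf4a they were Stard10 (r = 0.95), Agpat3 (0.95) and Dao (0.94). For Esrra they were Ppp1r16a (0.97), BC034090 (0.96) and Isoc2a (0.96). Pax8 was most like Aup1 (0.96), Tspan33 (0.95) and Tjp3 (0.95), and Tfeb was most like Adprhl2 (0.98), Mib2 (0.97) and Rfng (0.97). Klf15 had Lrpap1 (0.93), Ech1 (0.92) and Grhpr (0.92), and Pax2 had L1cam (0.95), Slc4a11 (0.92) and Dixdc1 (0.92). The closest genes were less alike for Ppara, with Snx17 (0.87), Ints9 (0.79) and Tmem37 (0.78), and for Ppargc1a, with Arl4a (0.78) among its 3. The 15 points share their group, the depth of their library and the M libraries with few genes, so these values carry no test.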

How the data were processed

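Kidney RNA of 15 mice (5 each of C, M and AA, grouped by their labels) was analysed. Per the labels and the study's methods, the authors cleaned the reads (fastp), aligned them with HISAT2 2.0.5 (mm10), counted them with featureCounts 1.5.0-p3 and deposited FPKM per gene and library. The annotation release and the strand setting are not given in the sources used here, and the counts behind the authors' DESeq2 tests were not analysed here. Symbols, positions and lengths come from GENCODE M21 (GRCm38), found by Ensembl identifier for all but 37 of 54532 genes.

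Comparisons used limma 3.58.1 in R 4.3.3 (with a trend of variance on level) on log2(FPKM + 1). Each fit held the 10 libraries of its comparison and the genes above 0 in at least 5 of them. Benjamini-Hochberg adjustment was over all genes tested. Fold changes on this scale understate those of low genes. Single members also had two-sided exact permutation tests. Mice are the replicates. No 2 libraries were identical.

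Fragments were recovered from the smallest steps of each library: 97.5 to 99.3% of values below 12 fragments fell within 0.05 of a whole number. The denominators these steps imply, 9018791 to 66432551, differ from the sums of fragments, and the deposited columns total 263853 to 1481900 FPKM, 71932 to 123882 outside the mitochondrial genome. So TPM, which gives every library the same total, lowers libraries rich in mitochondrial fragments.

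Members and gene lists were chosen with earlier results of these data known. Named are all members, up to 4 called genes with the smallest p per list and comparison (where none was called, the 2 with the smallest p), some tissue genes, and the 3 genes most like each member. A few genes this rule names are not reported here. Apoe, Flcn, the genes used in every cell and those called lower with M mice 4 and 5 only were named after their values were seen. The fit was tested on simulated data with the means and spread of the C group and changes planted in genes well above 0. That simulation held no libraries like those of M mice 1 to 3 and no shift in mitochondrial share. It therefore does not cover the spread within the M group or genes of low level. Alternatives are given in the closing section. Figures used Python 3.11.15 and matplotlib 3.10.9.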

Additional observations from a re-analysis of the deposited data

Results flagged for a closer look

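Dixon's ratio (the gap of the highest or lowest library to its neighbour, divided by the group's range) was taken in 75 groups of 5 libraries, for the members and the marker lists, and 3 exceeded the critical value of 0.71, where chance gives about 1 in 20. Ppargc1a was lowest in C mouse 3, at 0.649 FPKM with a ratio of 0.739. The mean log2 level of the endothelial markers was lowest in C mouse 2, at 2.30 (ratio 0.742). That of the lymphocyte markers was highest in C mouse 4, at 1.45 (ratio 0.794).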

How the results depend on the processing

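Outside the fits that left out 1 library, 225 values of members under the alternatives kept their direction and their side of the threshold. The others follow, as log2 fold changes. In M vs. C, TPM scaling made Hnf4a (−2.89), Esrra (−2.57) and Klf15 (−2.02) called, and all 15 libraries in one fit made Hnf4a (−2.05) called. Ppara turned to 0.036 with scaling outside the mitochondrial genome, 0.34 with centring, 0.10 with M mice 4 and 5 only and 0.14 with the GC trend subtracted, and with M mice 4 and 5 only Pax8 (0.055) and Tfeb (0.14) also turned. In AA vs. M, Hnf4a lost its call with TPM (1.58) and with M mice 4 and 5 only (0.69), where Pax8 (−2.06) and Tfeb (−1.38) gained one and Pax2 turned (−0.50). A pseudocount of 0.1 turned Ppara (0.14), Pax8 (0.35) and Klf15 (0.029), centring turned Ppargc1a (−0.26) and Pax2 (−0.013), limma voom on the recovered fragments turned Ppara (0.34) and Tfeb (0.59) and made Pax2 (4.31) called, and the GC trend turned Ppargc1a (−0.037). In AA vs. C, TPM made Hnf4a (−1.30), Ppargc1a (−1.01) and Pax2 (−1.80) called, and the GC trend took the call of Tfeb (−0.82). The causes were not tested. Voom with TMM was not run, since its tool needs deposited counts, and voom took the fragments outside the mitochondrial genome as library size.

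Genes called in M vs. C (291) were 448 with a mean FPKM of at least 1, 33 with any library above 0, 1586 with TPM, 786 with all 15 libraries, 497 with voom, 0 with M mice 4 and 5 only and 4 to 954 with 1 library left out. In AA vs. M (2533) they were 316 with TPM, 3940 with voom, 1656 with M mice 4 and 5 only and 1805 to 2897 with 1 left out. In AA vs. C (4346) they were 7474 with a pseudocount of 0.1, 7867 with voom and 3463 to 4770 with 1 left out.

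With 1 library left out, the members ranged as follows. In M vs. C, Hnf4a was −2.36 to −1.75 (called in 2 of 10 fits), Esrra −1.86 to −1.38 (1), Pax8 −2.29 to −1.34 (1) and Ppara −0.17 to 0.16. In AA vs. M, Hnf4a was 1.49 to 2.10, Ppara −0.21 to 0.12, Pax8 −0.67 to 0.28 and Klf15 −0.72 to 0.013. In AA vs. C, Ppara was −0.15 to 0.075 and Pax2 −1.33 to −0.67 (1).

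Same-numbered mice of 2 groups did not deviate together (r from −0.13 to 0.22), so the numbers do not pair them. The replicate block gave 152 calls in M vs. C, 2217 in AA vs. M and 4345 in AA vs. C, and changed no member's call.

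Of the genes called in M vs. C 19.6% were higher, and 1.89% with TPM and 38.9% with centring. For AA vs. M it was 91.6%, and 43.1% with centring, 74.7% with the GC trend and 27.8% with M mice 4 and 5 only. For AA vs. C it was 51.6%, and 11.4% with TPM and 40.1% with centring.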
